A study of Mus musculus with 4 samples.

Results

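The 99 immunoglobulin heavy chain variable (IGHV) segments described here were chosen from the 17519 genes of the deposited expression table as those with the biotype IG_V_gene and a symbol that starts with Ighv. RNA was sequenced from MHC class II positive cells that were taken from the spleen of C57Bl.6 mice with magnetic beads. Polysaccharide A (PSA), a capsule sugar of the gut bacterium Bacteroides fragilis, was given at 50 µg/ml for 24 h to the cells of the 3 day 1 libraries, and the 1 day 0 library came from freshly isolated cells without PSA. No library of cells cultured without PSA was analysed here, so PSA and a day in culture cannot be told apart. The labels do not say whether separate mice or cultures stand behind the day 1 libraries, so p-values rest on a spread that may be technical only.

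Each developing B cell joins 1 V segment to a D and a J segment by V(D)J recombination, and the joined exon encodes the variable domain of its heavy chain, which contacts antigen. Segments are grouped into families by sequence likeness, and the number after Ighv names the family. In bulk RNA of B cells the level of a segment therefore reflects how many cells carry it and how much heavy chain RNA each of them makes, and fewer cells and less RNA per cell cannot be told apart.

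In GENCODE M21 (GRCm38) all 99 symbols were found, all on the minus strand of chromosome 12 between 113578504 and 116000461, a span of 2.42 Mb. Of the table's gene IDs for these segments, 80 are not in that annotation, so positions and sequences were matched by symbol. The sequences are 294 bases of the V exon, which encodes most of the variable domain, printed without its first 11 bases, the end of the leader. Bases past the first 305 of the exon are also left out. This shortens Ighv3-6 and Ighv11-2 (exons of 307 bases) and Ighv1-62-2 and Ighv1-71 (313 bases) at the 3′ end. The sequences come from the GENCODE M21 transcripts and run 5′ to 3′ on the minus strand of GRCm38. The first 3 are the segments with the highest mean at day 1: Ighv1-55 (chr12:115208095-115208388), Ighv1-26 (chr12:114788372-114788665) and Ighv1-53 (chr12:115158403-115158696). Capitals mark the 45 of 294 positions at which these 3 are not all the same.
Ighv1-55: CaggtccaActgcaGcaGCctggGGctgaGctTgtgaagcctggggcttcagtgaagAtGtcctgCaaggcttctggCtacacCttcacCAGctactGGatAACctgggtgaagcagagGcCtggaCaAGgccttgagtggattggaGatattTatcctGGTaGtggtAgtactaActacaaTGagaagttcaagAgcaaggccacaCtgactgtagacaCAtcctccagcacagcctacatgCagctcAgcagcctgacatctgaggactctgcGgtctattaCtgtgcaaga
Ighv1-26: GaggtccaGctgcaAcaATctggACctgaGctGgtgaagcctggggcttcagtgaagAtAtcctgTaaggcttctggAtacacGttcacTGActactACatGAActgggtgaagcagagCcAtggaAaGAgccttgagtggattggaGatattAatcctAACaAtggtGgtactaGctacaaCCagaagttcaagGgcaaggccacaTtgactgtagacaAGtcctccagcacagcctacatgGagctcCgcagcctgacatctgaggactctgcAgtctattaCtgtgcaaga
Ighv1-53: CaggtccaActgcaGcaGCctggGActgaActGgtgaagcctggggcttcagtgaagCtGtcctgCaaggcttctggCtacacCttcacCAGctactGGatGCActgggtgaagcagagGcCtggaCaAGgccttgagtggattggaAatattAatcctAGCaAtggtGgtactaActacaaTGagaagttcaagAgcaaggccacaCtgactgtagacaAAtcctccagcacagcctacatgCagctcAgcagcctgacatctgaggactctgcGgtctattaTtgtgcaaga
Ighv1-55 and Ighv1-53 were 95.1% identical over the exon, and Ighv1-26 was 86.2% identical to Ighv1-55 and 87.5% to Ighv1-53.

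The highest segment of another family, Ighv3-6 (chr12:114288154-114288447), and Ighv11-2 (chr12:114048243-114048536), a segment known from B-1 cells that bind phosphatidylcholine, are shown for contrast. Capitals mark the last match to TANTNNTGT on the printed strand, which ends in a TGT codon for the second conserved cysteine of a V domain in these segments.
Ighv3-6: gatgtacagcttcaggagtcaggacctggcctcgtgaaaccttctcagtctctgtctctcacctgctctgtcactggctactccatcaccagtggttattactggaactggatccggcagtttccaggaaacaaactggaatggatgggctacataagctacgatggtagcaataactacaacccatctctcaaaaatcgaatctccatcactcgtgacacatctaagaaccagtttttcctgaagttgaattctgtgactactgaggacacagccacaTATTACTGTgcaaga
Ighv11-2: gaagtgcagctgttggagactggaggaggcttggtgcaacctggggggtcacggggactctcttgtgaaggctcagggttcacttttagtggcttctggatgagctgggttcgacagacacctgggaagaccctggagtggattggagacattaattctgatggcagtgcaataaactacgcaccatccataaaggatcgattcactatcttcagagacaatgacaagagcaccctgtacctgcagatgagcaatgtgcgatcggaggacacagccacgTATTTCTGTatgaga
They were 57.0% and 59.9% identical to Ighv1-55, and 61.2% identical to each other. TANTNNTGT was searched on the coding strand only, and it occurred in 98 of the 99 segments and in 151 of all 183 Ighv gene models of the annotation (82.5%). A match describes the letters only.

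The last sequence shows the limit set by near-identical copies. Ighv1-62-2 (chr12:115446417-115446710) and Ighv1-71 (chr12:115742213-115742506) have the same V exon throughout, with no capitals since no base differs.
Ighv1-62-2 and Ighv1-71: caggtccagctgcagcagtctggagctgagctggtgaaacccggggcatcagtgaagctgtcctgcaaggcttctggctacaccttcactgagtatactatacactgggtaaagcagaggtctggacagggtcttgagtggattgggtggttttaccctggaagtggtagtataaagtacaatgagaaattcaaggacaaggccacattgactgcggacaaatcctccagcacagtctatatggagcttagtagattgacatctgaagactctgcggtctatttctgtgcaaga
Both were given the same FPKM (a count of sequenced fragments scaled by transcript length and library size) in every library, 10.7, 12.5 and 18.5 at day 1 and 0 at day 0, so reads from one cannot be told from reads of the other. The median segment had 77.2% of its 50-base windows found in no other Ighv gene model, and 54 segments had a nearest member at 95% identity or more. Under 30% of windows were unique in Ighv1-72, Ighv1-71, Ighv1-62-2 and Ighv1-52, whose levels are uncertain for that reason. Identity did not always go with like levels: Ighv11-1 is 98.7% identical to Ighv11-2, but was listed at 0, 2.03 and 1.02 at day 1, against 30.9, 45.2 and 56.5 for Ighv11-2. Across the segments the mean day 1 level had a Spearman correlation of -0.13 with the unique share of windows, as a description.

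The labelled cell type was compared with its markers. The MHC class II genes Cd74, H2-Aa and H2-Ab1 had FPKMs of 2795 to 8399 at day 1 and 2130 to 4529 at day 0. Markers of B cells, the source of heavy chain RNA, summed to 5769, 5504 and 4790 at day 1 and 4263 at day 0, and none of the 13 was listed at 0 in any library. Pax5 alone made 2118 of the day 0 sum, but 161, 158 and 165 at day 1. The median log2 change of the 13 was 1.13, so the sums do not show a level B cell content. The macrophage and monocyte list summed to 121 to 133 at day 1 and 136 at day 0, and that of T and NK cells to 99.1 to 125 at day 1 and 109 at day 0. Dendritic cell markers summed to 128, 140 and 134 at day 1 and 270 at day 0, and neutrophil markers to 61.8, 49.1 and 40.2 at day 1 and 13.4 at day 0. Of the dendritic cell sums, Siglech alone made 222 at day 0, and 10.8, 16.2 and 13.6 at day 1. A level sum can hide members that moved apart, and limma called 3 of the 10 macrophage and monocyte markers higher and 6 lower. Depth differed far more than this. From the steps that whole fragments leave in low FPKM values, depth at day 1 came to 14.1, 15.8 and 21.7 times that of day 0. One fragment of a segment was worth an FPKM of 1.08, 0.961 and 0.700 at day 1, but of 15.2 at day 0. The day 0 unit was set as the lowest FPKM that 2 segments shared there, and the day 1 units follow from the depth ratios. Of the 14 segments above 0 at day 0, 10 came within 0.1 of a whole number of units, where 20% would by chance. The 2 segments that set the unit are whole by definition and are among these 10. The summed IGHV FPKM stood for about 1194, 1750 and 3272 fragments at day 1, and for about 25.03 at day 0, so 3 fragments of a segment at day 0 make an FPKM of 45.5.

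After 24 h with PSA the heavy chain repertoire was broad, with no dominant segment. Of the 99 segments, 80, 86 and 95 were above 0 in the day 1 libraries and 75 were so in all 3, against 14 in the day 0 library. The mean day 1 FPKM was 10 or more for 52 segments, from 1 to 10 for 35, and under 1 for 12, with a median of 10.3. The 10 highest segments of each library held 41.9%, 39.3% and 39.8% of the summed IGHV FPKM at day 1 and 84.1% at day 0. It took 14, 15 and 15 segments to reach 50% of the sum at day 1 and 5 at day 0. By these FPKM values about 25.03 fragments in all stood behind day 0, too few to show a repertoire as broad. Of the 9 segments whose day 1 mean would give 3 or more fragments at that depth, 8 were listed at 0 at day 0. The reason for these zeros was not tested.

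**Figure D1:**
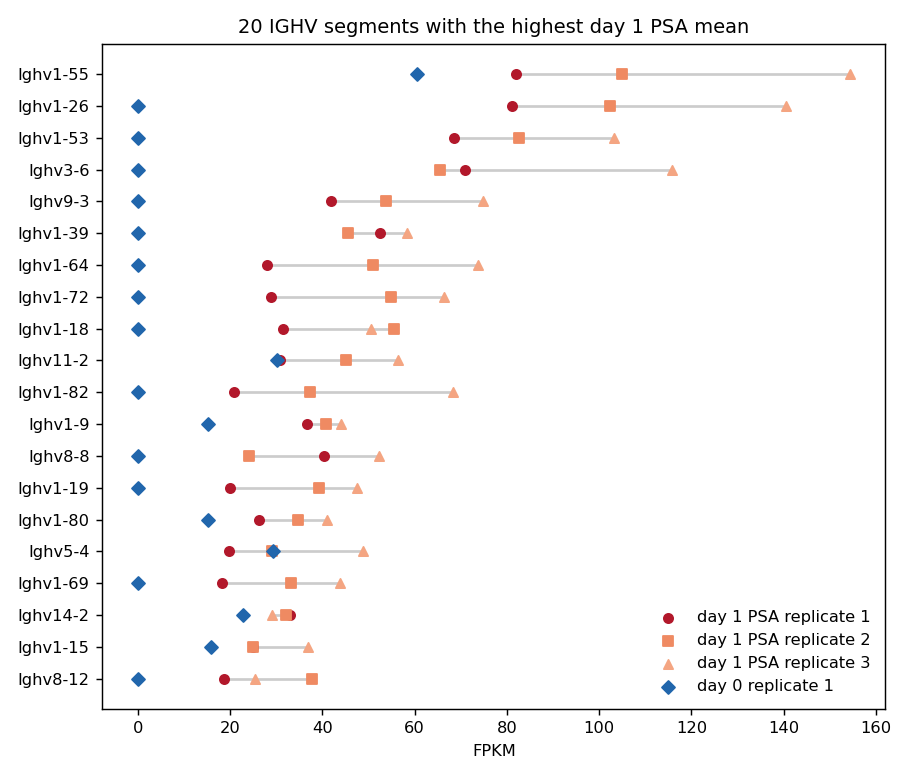
FPKM of the 20 segments with the highest day 1 PSA mean (x axis, linear), with a row per segment, a symbol for each of the 3 day 1 PSA libraries and for the 1 day 0 library, and a line over the day 1 range. Ighv1-55, Ighv1-26, Ighv1-53 and Ighv3-6 stand above 65 in all day 1 libraries, replicate 3 is mostly the highest, and most day 0 symbols lie at 0.

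Ighv1-55 was the highest segment, with an FPKM of 81.9, 105 and 154 in the day 1 libraries, against 60.6 at day 0. Ighv1-26 followed with 81.2, 102 and 140 at day 1, and was listed at 0 at day 0. Ighv1-53 had 68.5, 82.7 and 103 at day 1, and was likewise listed at 0 at day 0. The first replicate was the lowest and the third the highest for all of these segments, and every day 1 value lay above the day 0 value. Ighv3-6 stood at 71.0, 65.4 and 116 at day 1, and was listed at 0 at day 0. These 4 segments each took 4.82% to 6.45% of the IGHV sum at day 1 on average.

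The next levels were less separate. Ighv9-3 had 41.9, 53.8 and 74.8 at day 1 and was listed at 0 at day 0. Ighv1-39 had 52.5, 45.5 and 58.3 at day 1 and was listed at 0 at day 0. These ranges overlap, so the order of Ighv9-3 and Ighv1-39 is not fixed by the 3 libraries. Ighv1-64, Ighv1-72 and Ighv1-18 averaged 51.0 ± 22.9, 50.1 ± 19.2 and 45.9 ± 12.7 (SD, n = 3) at day 1, which differ by less than their spread. Ighv11-2 was the only segment of the top 10 outside family 1 that was also above 0 at day 0, with the day 1 values given above beside those of Ighv11-1, and 30.1 at day 0. The 10 highest segments of the 3 day 1 libraries had 6 in common (Ighv1-55, Ighv1-26, Ighv1-53, Ighv3-6, Ighv9-3 and Ighv1-39), of 14 that were in any of the lists.

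Over the 98 segments at an FPKM of 1 or more in a library, log2(FPKM + 1) had a Pearson correlation of 0.81 between day 1 replicates 1 and 2, 0.83 between 1 and 3, and 0.88 between 2 and 3. With day 0 the correlations were 0.26, 0.24 and 0.30 in the order of replicates 1, 2 and 3. Of the 98 segments, 84 were listed at 0 at day 0, so these low values cannot show that usage differed there. All the correlations are across segments of the same libraries, which share depth and sequence-dependent mapping and are not independent replicates.

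The total level of the segments differed among the day 1 libraries, while that of the kappa chain segments did not follow it. The summed IGHV FPKM was 1286, 1682 and 2290 at day 1, a mean of 1753 ± 505 (SD, n = 3), against 380 at day 0. The 94 immunoglobulin kappa variable (IGKV) segments, which supply most light chains of the mouse, summed to 3805, 3837 and 3661 at day 1, against 329 at day 0. Ighm, the mu constant gene to which the V exon is spliced in IgM transcripts, had 4428, 4519 and 4404 at day 1, against 784 at day 0. Ighm and the kappa sum were thus near level in the day 1 libraries, where the highest IGHV sum was 1.78 times the lowest. The IGHV sum per unit of Ighm was 0.290, 0.372 and 0.520 at day 1 and 0.484 at day 0, so the day 0 ratio lay inside the day 1 range. The kappa sum per unit of Ighm was 0.859, 0.849 and 0.831 at day 1 and 0.420 at day 0.

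**Figure D2:**
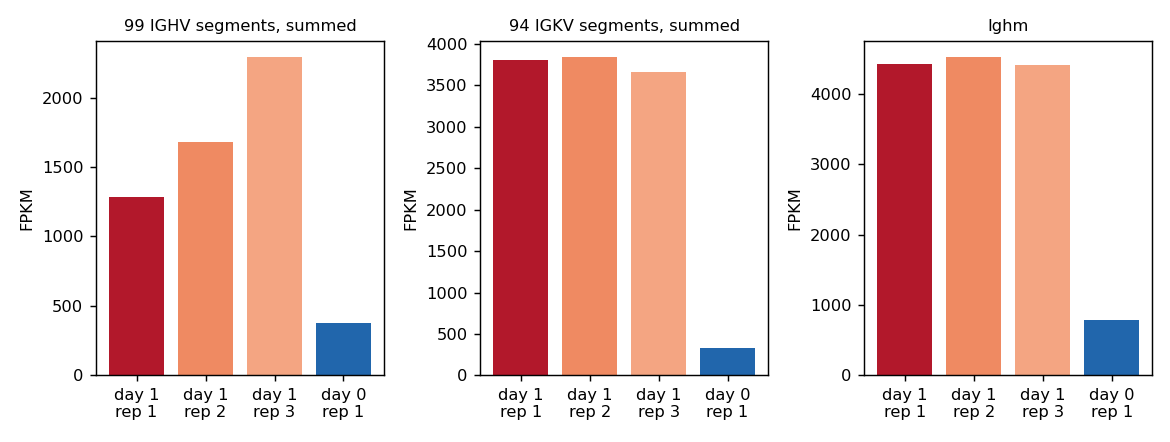
Summed FPKM of the 99 IGHV segments, summed FPKM of the 94 IGKV segments and FPKM of Ighm (y axes, linear from 0), with a bar for each of the 3 day 1 PSA libraries and for the 1 day 0 library. The IGHV bars differ by 1.78 times among the day 1 libraries, while the IGKV and Ighm bars are near level there, and the day 0 bar is the lowest in each panel.

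The difference between the day 1 libraries ran through most segments. Of the 52 segments with a day 1 mean of 10 or more, 49 were higher in replicate 3 than in replicate 1, with a median ratio of 1.73, and 44 had their highest value in replicate 3. Replicate 3 over replicate 2 had a median ratio of 1.46, and replicate 2 over replicate 1 one of 1.32. At the same level, 63 kappa segments had median ratios of 0.967, 0.963 and 0.955 for these pairs, and 5291 protein-coding genes ones of 1.01, 1.01 and 1.00. The coefficient of variation of the 52 segments over the day 1 libraries had a median of 34.9%, and one of 21.05% after each value was divided by its library's IGHV sum. Estimated depth (14.1, 15.8 and 21.7 times day 0) moved in the same order as the IGHV sum. The 6 erythroid markers moved in the opposite order, with sums of 4694, 2824 and 1830 at day 1 and 3377 at day 0. The 8 plasma cell markers summed to 504, 476 and 467 at day 1 and 334 at day 0. The part of depth or of other cells in the IGHV differences was not tested.

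Some segments are named for the order or the width of their day 1 values. Ighv14-2 was the only one of the 52 with its highest value in replicate 1, at 32.9, 32.1 and 29.0 at day 1 and 22.8 at day 0. Ighv1-54 had the widest spread, with 3.54, 17.7 and 9.47 at day 1, and was listed at 0 at day 0. The other wide segments were Ighv4-1, Ighv3-1, Ighv1-78 and Ighv1-82, whose highest day 1 value was 3.26 to 4.23 times the lowest, always in replicate 3. Ighv1-9 was steady, with 36.7, 40.7 and 44.1 at day 1 and 15.2 at day 0; it is named here after its values were seen.

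Of the total expression signal the segments took a small share. They held 0.178%, 0.263% and 0.395% of the summed FPKM of all genes at day 1, against 0.00742% at day 0, a 37.6-fold higher mean share. That ratio depends on what it is divided by, since small RNAs and pseudogenes held 14.1%, 11.7% and 10.7% of the summed FPKM at day 1 and 87.9% at day 0. Against protein-coding genes with the immunoglobulin and T cell receptor segments, the IGHV share was 0.210%, 0.300% and 0.447% at day 1 and 0.0637% at day 0, a 5.01-fold higher mean. Among immunoglobulin variable segments of both chains the direction turned round, with an IGHV share of 23.2%, 28.5% and 36.2% at day 1 and 50.4% at day 0. No test of these shares was run, since an exact permutation of 3 libraries against 1 cannot give a p below 0.25.

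Family 1, the largest family of the mouse heavy chain locus, held most of the signal. Its 50 segments took 60.7%, 63.0% and 61.3% of the IGHV sum at day 1 and 52.3% at day 0. The mean day 1 share was 61.7% ± 1.19 (SD, n = 3), where its share of the segments was 50.5%. Family 5, with 9 segments, took 6.10% to 7.25% at day 1 and 23.9% at day 0, from 4 segments above 0. Family 3, with 5 segments led by Ighv3-6, took 7.29%, 5.65% and 6.66% at day 1 and was listed at 0 at day 0. The 3 day 1 libraries thus gave family shares within a few percentage points of each other, while the day 0 shares rest on 1 to 4 fragments per segment.

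The family sums did not all move alike. Family 14, led by Ighv14-2, summed to 77.1, 79.4 and 87.2 at day 1 and 45.5 at day 0, which made shares of 5.99%, 4.72% and 3.81% at day 1 and 12.0% at day 0, the lowest of the day 1 shares in the library with the highest IGHV sum. Family 9 kept the most even share of the larger families, at 4.28%, 4.13% and 4.23% at day 1, and was listed at 0 at day 0. Family 8, led by Ighv8-8, held 5.07% ± 0.76 of the day 1 sum, and family 2, led by Ighv2-2, 2.77% ± 0.60 (SD, n = 3). Both were listed at 0 at day 0. Family 11, almost all of it Ighv11-2, held 2.40%, 2.81% and 2.51% at day 1 and 7.94% at day 0. Family 12, here the 1 segment Ighv12-3, also known from B-1 cells, had 2.17, 6.72 and 19.0 at day 1 and was listed at 0 at day 0. The families led by Ighv6-3, Ighv10-1, Ighv7-3, Ighv4-1 and Ighv15-2 held 2.29% to 0.180% of the day 1 sum each. Ighv7-3 and Ighv7-1 carry IDs that have other symbols in GENCODE M21, so which of them each value belongs to is uncertain.

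**Figure D3:**
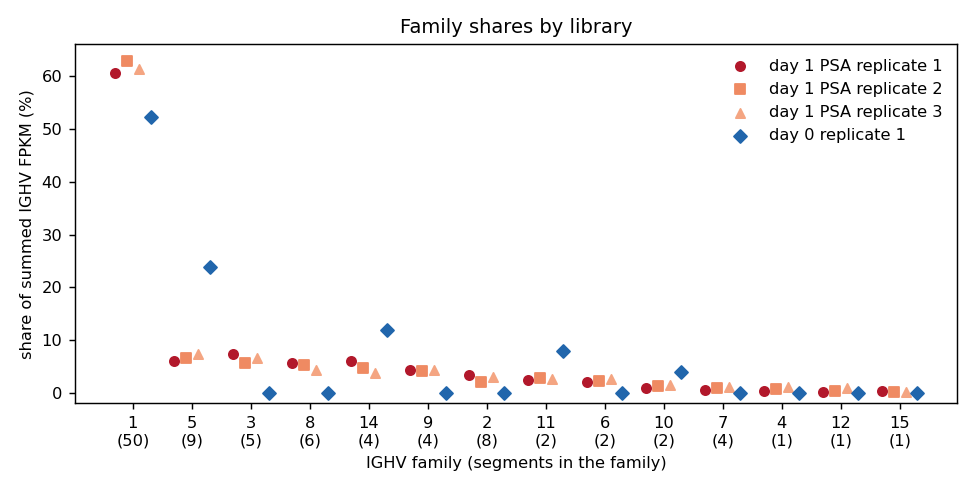
Share of the summed IGHV FPKM held by each family in percent (y axis), with families in order of their mean day 1 share and their number of segments in brackets (x axis), a symbol for each of the 3 day 1 PSA libraries and for the 1 day 0 library. Family 1 holds 60.7% to 63.0% at day 1, and day 0 shows shares above 0 for 5 families.

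Segments were in use along the whole locus. In the 33 segments nearest to Ighj1, the first J segment, the share of the IGHV sum was 22.9% ± 0.94 (SD, n = 3) at day 1 and 43.8% at day 0. The middle 33 held 35.7% ± 1.63 at day 1 and 12.1% at day 0, and the far 33 held 41.4% ± 1.96 at day 1 and 44.1% at day 0 (SD, n = 3). The far and middle groups hold all of the family 1 segments, so position and family cannot be told apart here. Between distance and mean day 1 level the Spearman correlation over the 99 segments was 0.19, as a description.

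**Figure D4:**
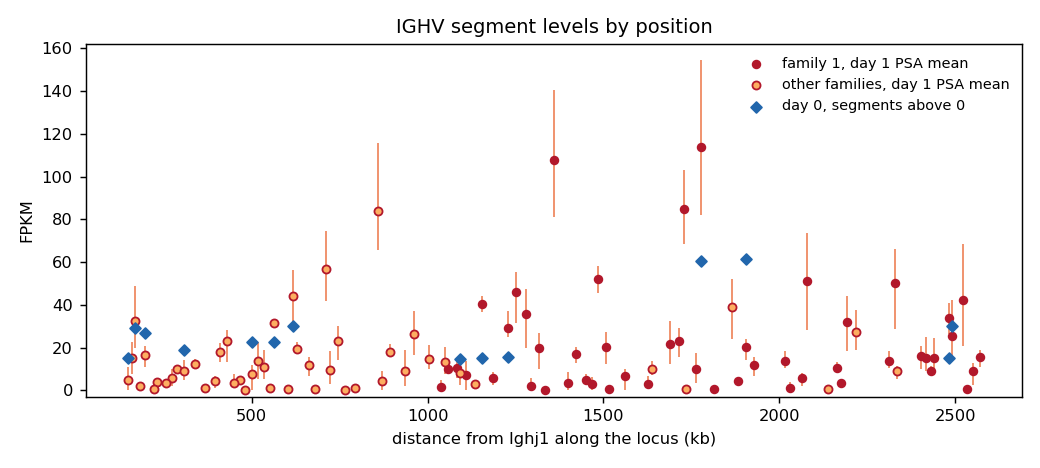
FPKM of each segment (y axis) against its distance from Ighj1 in kb (x axis), with filled points for family 1 and open points for other families at the mean of the 3 day 1 PSA libraries, lines over the day 1 range, and diamonds for the 14 segments above 0 in the 1 day 0 library. High and low segments alternate along the locus, and the 3 highest day 1 means belong to family 1.

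Against day 0, a large part of the segments passed the limma test, almost all of them segments listed at 0 at day 0. On log2(FPKM + 1), 53 of 98 tested segments rose, 1 fell and 44 did not pass (limma, adjusted p under 0.05), where 35.0% of the 13903 genes tested rose and 19.0% fell. The count of rises was lower without day 1 replicate 2, and both counts were higher with the IGHV sum made equal in all libraries. The share of all genes called under these settings is not given here, so these shifts cannot be read against a background. Of the 53, 52 were listed at 0 at day 0, out of 84 tested segments so listed, where 53.7% of all tested genes listed at 0 rose. Of the 14 segments above 0 at day 0, 1 rose and 1 fell, where 27.8% and 26.3% of such genes did. The median log2 change of the tested segments was 2.81, against 0.59 over all genes tested, but it was -0.17 over the 14 segments above 0 at day 0, against 0.018 over all such genes. A segment listed at 0 at day 0 can only be higher, and the size of its log2 change depends on the pseudocount. Only 9 segments had a day 1 mean that would give 3 or more fragments at the depth of day 0, and 8 of these were listed at 0 there, while 63 would give under 1 fragment.

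The rises with the largest log2 values, of Ighv1-26, Ighv1-53, Ighv3-6, Ighv9-3 and Ighv1-39, were all of segments listed at 0 at day 0. Their direction was fixed by that 0 and their order is that of the day 1 levels, so the values are no measure of size. For Ighv1-26 the log2 change was 6.73 with the pseudocount of 1 (limma adjusted p = 0.0037), 10.04 with one of 0.1 and 4.46 with one of 5. Ighv1-9 was the 1 rise among segments above 0 at day 0, at 2.67 times its day 0 level (log2 change 1.36). That day 0 level was taken as 1 fragment. The limma SE and p-values come from the spread of the day 1 libraries alone and leave out the counting error at day 0. In the authors' deposited table Ighv1-9 lies on the other side of 0, with a log2 fold change of -0.10 and no call. Ighv1-55 was 1.88 times its day 0 level, and did not pass (log2 change 0.85 ± 0.42, SE, limma adjusted p = 0.18). Ighv11-2, at 1.47 times, did not pass either (log2 change 0.50 ± 0.40, SE, limma adjusted p = 0.36).

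The 1 fall was of Ighv1-59, the highest segment at day 0. It had 14.2, 24.1 and 22.4 at day 1, against 61.4 at day 0, where it stood for about 4.05 fragments. The counting error of so few fragments is not in the SE and p-values that follow. All 3 day 1 values lay below the day 0 value, and the log2 change came to -1.59 ± 0.36 (SE, limma adjusted p = 0.038). The call was lost without day 1 replicate 2 (limma adjusted p = 0.094) or replicate 3 (limma adjusted p = 0.11). Ighv1-81, also among the 5 highest at day 0, had 14.3, 20.1 and 42.2 at day 1 and 30.3 at day 0. Ighv5-4, another of these 5, had 19.8, 29.0 and 48.9 at day 1 and 29.4 at day 0. For both, the day 1 range enclosed the day 0 value.

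The authors' deposited table gives a different size for these changes. It calls none of the 99 segments at a false discovery rate under 0.05, where it calls 2.81% of all 17519 genes. One unadjusted p under 0.05 is given for a segment in the authors' deposited table, that of Ighv1-34 (p = 0.026, log2 fold change 1.78), where 9.74% of all genes have one. The median log2 fold change of the segments in the authors' deposited table is 0.20, against 0.028 over all genes, and 61.6% of the segments are positive, against 51.5% of all genes. For the 52 segments with a day 1 mean of 10 or more, the authors' deposited table spans -0.71 to 1.78 with a median of 0.23. Ighv1-26 stands at 0.24, Ighv1-53 at 0.26, Ighv3-6 at 0.42 and Ighv1-55 at 0.38 in the authors' deposited table, and Ighv1-59 at -0.71. Of the 85 segments listed at an FPKM of 0 at day 0, 28 are negative in the authors' deposited table, as are 33.2% of the 6984 genes that are listed at 0 at day 0 and above 0 at day 1. A value of 0 at day 0 therefore does not show that a segment had no reads in the authors' comparison, and the limma rises of such segments are not measures of size.

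**Figure D5:**
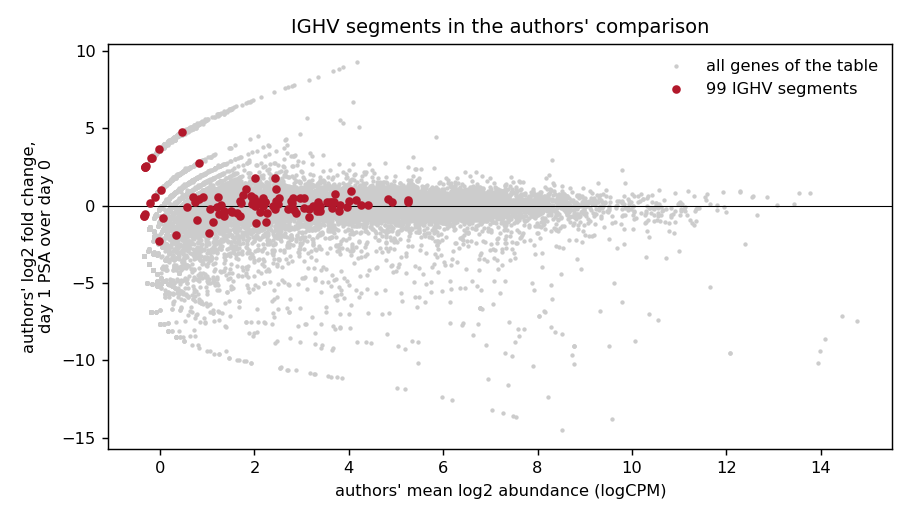
Log2 fold change of day 1 PSA over day 0 (y axis) against mean log2 abundance, logCPM (x axis), both from the authors' deposited table, for all 17519 genes in grey and the 99 IGHV segments in red. Most segments lie near 0, with 79 of 99 within 1 of it, and the largest changes are at the lowest abundance.

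Other genes of heavy chain expression were measured in the same fit. Over all 11 lists 39 of 90 tested genes rose and 18 fell, against 35.0% and 19.0% of all tested genes, so the falls were near the background. Both counts were lower without day 1 replicate 2, a setting for which the share of all genes is not given here. Of 5 tested heavy chain constant genes, 4 rose and none fell, and 1 of the 4 was listed at 0 at day 0, where 53.7% of tested genes so listed rose. Ighm, whose day 1 values are given above, was 5.68 times its day 0 level (log2 change 2.50 ± 0.16, SE, limma adjusted p = 0.0041), and Ighg1 had 57.9, 52.8 and 60.6 at day 1 and was listed at 0 at day 0. Ighg2b rose 7.13-fold and Ighg3 4.31-fold, while Ighe was listed at 0 in all libraries. The authors' deposited table calls none of them, with a log2 fold change of 0.63 for Ighm.

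Of 20 genes of B cell receptor signalling, all above 0 at day 0, 13 rose and 2 fell, where 27.8% of tested genes above 0 at day 0 rose and 26.3% fell. Just 1 member, Cr2, is called in the authors' deposited table, as lower, where 2.81% of all genes are called in either direction. Fcgr2b, the inhibitory Fc receptor of B cells, rose to 140, 123 and 116 at day 1, against 20.2 at day 0. Cd79a and Cd79b, which carry the signal of surface immunoglobulin, were 3.12 and 3.07 times as high at day 1 as at day 0. Cr2, a complement receptor, fell to 13.7, 13.2 and 12.6 at day 1, against 46.6 at day 0. All of these genes were above 0 in every library.

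The cell type marker lists held calls in both directions in limma, where 35.0% of all tested genes rose and 19.0% fell. Of 13 B cell markers 7 rose and 3 fell, of 10 macrophage and monocyte markers 3 rose and 6 fell, and of 7 tested dendritic cell markers 2 rose and 4 fell. Of 7 tested T and NK cell markers 2 rose and 2 fell, and of 5 neutrophil markers 4 rose, all of them listed at 0 at day 0. None of 5 tested erythroid markers passed (limma), and 1 had an unadjusted p under 0.05. The authors' deposited table calls none of the markers of these lists higher, and calls 5 macrophage and monocyte, 3 dendritic cell, 2 B cell and 1 T and NK cell markers lower. Over all 17519 genes, the authors' deposited table calls 2.81% in either direction. The part of these cell types in the segment values was not tested. Ighd, Igha, Igll1, Vpreb2 and Ly6g were not analysed here.

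Of 7 tested plasma cell markers, 4 rose and none fell, and 2 of the 4 were listed at 0 at day 0, where 35.0% of all tested genes rose. The authors' deposited table calls none of the plasma cell markers, and their median log2 fold change there is -0.061. Jchain, which joins IgM and IgA polymers, had 168, 167 and 183 at day 1, against 44.4 at day 0, while the authors' deposited table puts its log2 fold change at -0.22. Xbp1, a factor of secretory cells, was 2.76 times its day 0 level, and Prdm1, the factor that drives plasma cell fate, had 1.24, 1.26 and 1.60 at day 1 and was listed at 0 at day 0. Of 14 transcription factors that bind the heavy chain locus, 4 rose and 3 fell, which is near the 35.0% and 19.0% of all tested genes. Pax5, which maintains B cell identity, fell, with 161, 158 and 165 at day 1, against 2118 at day 0. Of 6 tested genes of recombination, switching and hypermutation, Bcl6 rose and Bach2 fell, where 35.0% and 19.0% of all tested genes did. Both are transcription factors of B cell fate, and the authors' deposited table calls neither, with log2 fold changes of 0.037 and -0.19. Rag1, a part of the recombinase, was at 0, 0.045 and 0.029 at day 1 and listed at 0 at day 0.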

How the data were processed

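The 3 day 1 libraries and the 1 day 0 library were grouped by their titles. Per the labels' protocols, Qiagen RNeasy kits gave the RNA, which was sequenced on an Illumina HiSeq, reads under 10 nt were left out after adaptor removal, and FPKM was estimated with Cufflinks. The submitters' processing notes name cutadapt, TopHat 1.4.1, Cufflinks 2.2.1, Cuffdiff and GRCm38.p6. The treatment of reads that match several segments is not given in the sources used here. The authors' deposited table holds FPKM per library and the authors' log2 fold change, mean log2 abundance, p-value and false discovery rate, whose test the file headers do not name.

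Segments were chosen by biotype and symbol. The segments, the 11 gene lists and the rules were chosen with earlier results of these data known. Named segments were the 10 highest at day 1, the 5 highest at day 0, the 5 with the widest day 1 spread at a mean of at least 10, the 5 largest rises and falls past the test at an FPKM of at least 10, and the highest of each family. From each list the largest changes were named, and some list genes are not reported here.

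The test was limma 3.58.1 with a trend, in R 4.3.3. It used log2(FPKM + 1) of the 13903 genes that reached an FPKM of 1 in any library. P-values were adjusted by Benjamini and Hochberg's method, with calls under 0.05. The spread of day 0, with its lone library, was taken to be that of day 1, with 2 residual and 1.27 prior degrees of freedom. The code was tested on simulated data. Depth was estimated from the FPKM step of 1 fragment in 1182 single-transcript genes. At day 1, 65.2%, 68.5% and 65.2% of the low values, and at day 0 62.1%, came out within 0.1 of whole fragments (20% by chance). For segments, 1 fragment at day 0 was the lowest FPKM that 2 of them shared, scaled by depth for day 1. Fragments are estimates and cover counting error only. V exons were compared by aligned identity and by windows of 50 bases. The alternatives were other pseudocounts, filters, scalings and denominators, and leaving out each day 1 library.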

Additional observations from a re-analysis of the deposited data

How the results depend on the processing

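The count of segments that rose in limma was 44 to 61, against 53, under the other pseudocounts, filters and scalings and without a trend, but 1 of 14 when only genes above 0 at day 0 were tested, and 30 to 51 when a day 1 library was left out (30 without replicate 2). The count that fell, 1, was 0 with no filter and with protein-coding sums made equal, 9 with IGHV sums made equal, and 0 to 1 when a library was left out (0 without replicate 2 and without replicate 3). With IGHV sums made equal, Ighv1-55, Ighv11-2, Ighv14-2 and Ighv5-4 turned to log2 changes of -1.30, -1.63, -1.67 and -2.08. That scaling multiplies all values of a library by the same factor, which is largest for day 0, and leaves a 0 at 0. The log2 changes of segments above 0 at day 0 therefore move down by arithmetic. Ighv5-4 also turned to -0.26 with the median of all genes set to 0, and ranged from -0.28 to 0.35 when a library was left out, at -0.28 without replicate 3. Of the list genes, 39 rose and 18 fell, against 14 to 33 and 9 to 16 when a library was left out, lowest without replicate 2. The day 1 over day 0 ratio of the IGHV share, 37.6, was 5.01 and 0.582 with the narrower denominators, 8.95 over segments above 0 at day 0, and 29.7 to 44.3 when a library was left out. The day 1 share of family 1, 61.7%, was 59.0% without Ighv1-55, 63.1% over segments above 0 at day 0, and 61.0% to 62.2% when a library was left out. The mean correlation of the day 1 libraries, 0.84, was 0.74 with a pseudocount of 0.1 and 0.77 over segments at an FPKM of 10 or more. Apart from the equal IGHV sums and the tests of fewer genes or fewer libraries, the cause of these shifts was not tested. The share of all tested genes called under each alternative is not given here, so these counts have no background beside them. Over 26 named segments and 12 alternatives, 253 values kept their direction and side of the threshold, 23 lost a call, 9 gained one and 6 changed sign. Only 6 of these 26 segments were above 0 at day 0, and all the sign changes were among them. The others were listed at 0 there and can only be higher, so their kept direction was fixed in advance and shows no stability. The depth of day 0, about 25.03 IGHV fragments in all, limits every comparison with it. No paired analysis was possible because the day 0 group has 1 library.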

Other observations

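Other Ighv genes of the table lay outside the rule by their biotype, and were low. Ighv13-2, annotated as a pseudogene there, had an FPKM of 0, 8.38 and 10.8 at day 1 and was listed at 0 at day 0, and Ighv3-5, annotated as protein-coding, had 1.06, 0.943 and 5.46 at day 1 and was listed at 0 at day 0. Among the chosen segments, GENCODE M21 annotates Ighv1-2, Ighv1-83 and Ighv3-2 as pseudogenes. Each of them was above 0 in 1 day 1 library only, at 4.73 in replicate 2 for Ighv1-2, 2.30 in replicate 3 for Ighv1-83 and 1.67 in replicate 3 for Ighv3-2, and all were listed at 0 at day 0.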
